A study of Mus musculus with 2 samples.

Results

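Low-ribosomal astrocytes are brain cells that carry astrocyte transcripts but very few transcripts of cytosolic ribosomal proteins. A barcode was counted as an astrocyte when Aqp4, Slc1a2, Slc1a3, Gja1, Ntsr2 and Slc4a4 together held at least 10 UMIs (unique molecules) and at least 0.5% of its UMIs. It also had to hold at most 3 UMIs of the oligodendrocyte genes Mog, Mag, Opalin and Ermn, and at most 2 of the ependymal genes Tmem212 and Ccdc153. An astrocyte was low-ribosomal when genes named Rps or Rpl made up less than 0.6% of its UMIs. Of 11312 cells in the series, 2659 were astrocytes by these limits, and 1242 of them were low-ribosomal. The Fit2-Mut library held 636 low-ribosomal cells beside 835 other astrocytes, and the Fit2-WT library held 606 beside 582.

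The cells came from whole brains of APP-KI mice aged 6 months, a knock-in model of amyloid disease, dissociated with an enzymatic kit and sequenced with droplet 3′ chemistry. Both genotypes carried the APP knock-in. The Fit2-Mut library came from mice in which the lipid droplet gene Fit2 (Fitm2) was disrupted in macrophages, and the Fit2-WT library from mice with intact Fit2. Each genotype is 1 library. The driver of the disruption, the altered part of the gene and the number of pooled animals are not given in the sources used here. No value below can therefore be set against variation between animals, and no test between genotypes was possible. None was made between cell classes, which the rule itself defined. Intervals are 95% counting intervals only.

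Astrocytes clear glutamate and potassium from synapses, move water at the blood vessels, couple to each other through gap junctions and secrete lipoproteins. In any cell, newly made transcripts with introns and some long noncoding RNAs stay in the nucleus, while spliced messages for ribosomal proteins, enzymes and secreted proteins gather in the cytoplasm. Mitochondrial transcripts are made and kept inside mitochondria, outside the nucleus. Free nuclei and cells that have lost cytoplasm thus usually combine much nuclear RNA with little of the other kinds.

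The cells were selected on their own ribosomal share and astrocyte transcripts, so these values are given as a description. Its median was 0.256% in low-ribosomal cells against 1.49% in other astrocytes of the Fit2-Mut library, and 0.273% against 1.66% in the Fit2-WT library. The distribution had a narrow peak between 0.2% and 0.3%, with 194 Fit2-Mut and 186 Fit2-WT cells, and a broad second mass between 1% and 2%. The 0.6% limit lay on the shoulder between them. Just inside the limit, from 0.5% to 0.6%, were 44 Fit2-Mut and 49 Fit2-WT cells, and just outside, from 0.6% to 0.7%, were 38 and 41. Summed Apoe in these border cells was 6140 CPM (UMIs of the gene per 1000000 UMIs of the cells summed) inside against 6918 CPM outside the limit in Fit2-Mut, and 6593 against 5958 CPM in Fit2-WT. The side with more Apoe was not the same in both libraries.

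**Figure D1:**
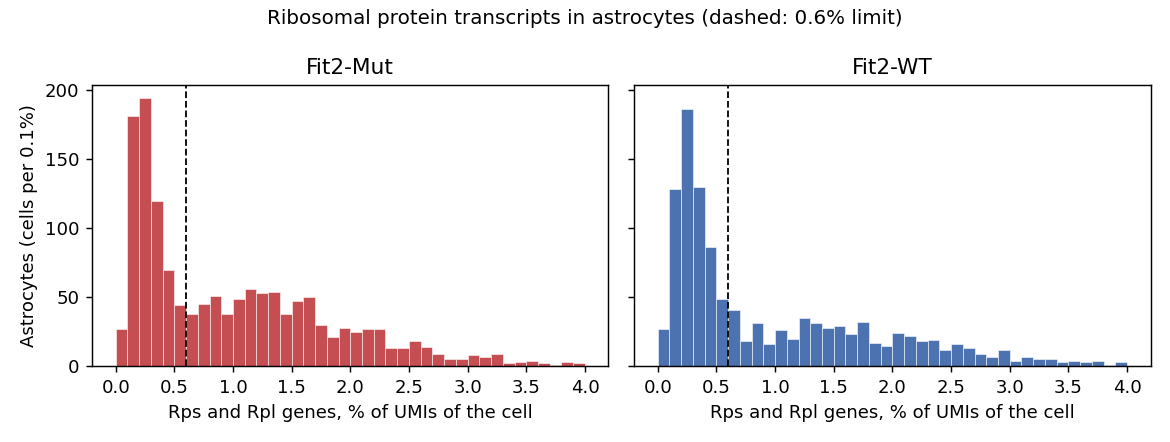
Number of astrocytes (vertical axis, cells per 0.1% bin) by the share of UMIs from Rps and Rpl genes (horizontal axis, percent of a cell's UMIs) in the Fit2-Mut (left) and Fit2-WT (right) libraries. Both have their tallest bin from 0.2% to 0.3%, left of the dashed 0.6% limit, and 40 Fit2-Mut and 29 Fit2-WT cells above 4% are not drawn.

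Low-ribosomal cells were also shallower. The median was 3826.5 UMIs and 1691.5 genes per low-ribosomal cell against 6660 UMIs and 2732 genes per other astrocyte in Fit2-Mut. In Fit2-WT it was 3379 UMIs and 1552.5 genes against 6131.5 UMIs and 2613.5 genes. When each cell was thinned to 1000 UMIs, the medians were 623 against 656 genes in Fit2-Mut and 621 against 658 genes in Fit2-WT. Doublets called by Scrublet numbered 0 against 32 in Fit2-Mut and 1 against 17 in Fit2-WT. Low-ribosomal cells in the 2 libraries shared no barcode, and neither did the other astrocytes. Depth and doublets thus move with the class, and their part in the differences between classes was not tested beyond the alternatives in the closing section.

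The cells had been labelled nucleus-like from Slc1a2, Slc4a4, Kcnd2 and Malat1. The data bear that label out only in part. Malat1, a noncoding RNA retained in nuclear speckles, was at 81299 CPM in low-ribosomal against 99481 CPM in other astrocytes of Fit2-Mut (ratio 0.817, 0.813 to 0.821). In Fit2-WT it was at 86538 against 94638 CPM (0.914, 0.909 to 0.919). Malat1 was lower in low-ribosomal cells in both libraries, and its log2 ratio stayed below 0 under all 15 alternatives tried, from -0.40 to -0.17 in Fit2-Mut and from -0.22 to -0.07 in Fit2-WT. Mitochondrially encoded transcripts were at 5.26% of UMIs in the median low-ribosomal cell against 3.77% in other astrocytes of Fit2-Mut, and 4.90% against 3.54% in Fit2-WT. A higher mitochondrial and a lower Malat1 share are not what the label describes, so the cells are called low-ribosomal astrocytes here.

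Malat1 (chr19:5795690-5802672 on the minus strand, mm10) is encoded in 1 exon and ends in a templated A-rich stretch rather than a poly(A) tail. The stretch around its longest A run is shown because the library chemistry captures RNA through runs of A. The sequence is that of the GENCODE M21 transcript of 6983 bases, in which the 12 capital bases are positions 6674 to 6685:
Malat1: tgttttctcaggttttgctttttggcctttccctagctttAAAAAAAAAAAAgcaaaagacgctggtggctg
Its level followed the ribosomal share in an arch. From below 0.2% through 0.2% to 0.4%, 0.4% to 0.6%, 0.6% to 1%, 1% to 2% and above 2%, Malat1 was at 72799, 82651, 93270, 119705, 110577 and 71102 CPM in Fit2-Mut. The Fit2-WT levels over the same 6 bins were 76201, 84920, 103183, 114170, 111794 and 68830 CPM. The cells poorest in ribosomal transcripts were thus about as low in Malat1 as the cells richest in them, and the intermediate cells were the highest.

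The other 3 genes of the label behaved differently from each other. Kcnd2, a voltage-gated potassium channel gene of 514 kb (chr6:21215503-21729805, plus strand), was at 3072 CPM in low-ribosomal against 1188 CPM in other astrocytes of Fit2-Mut (2.58, 2.5 to 2.67). In Fit2-WT it was at 2808 against 997 CPM (2.82, 2.71 to 2.93). Slc1a2, the main glutamate transporter (chr2:102658659-102790784, plus strand), was at 5328 against 5205 CPM in Fit2-Mut (1.02) and 5844 against 5498 CPM in Fit2-WT (1.06). Slc4a4, the sodium bicarbonate cotransporter, was at 3695 against 3326 CPM in Fit2-Mut (1.11) and 3450 against 3202 CPM in Fit2-WT (1.08). Kcnd2 alone of the 3 was over 2-fold higher. The Fit2-Mut log2 ratio of Slc1a2 ran from -0.07 to 0.11 over the alternatives, so it has no settled direction. Because Slc1a2 and Slc4a4 chose the cells as astrocytes, their presence is no finding.

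In cells thinned to 1000 UMIs, a UMI of Slc1a2 was found in 94.7% of low-ribosomal against 95% of other astrocytes in Fit2-Mut, and in 95.2% against 96.0% in Fit2-WT. A UMI of Kcnd2 was found in 69.7% against 53.1% in Fit2-Mut and 62.4% against 45.4% in Fit2-WT. Cells marked by microglial genes (at least 0.5% of UMIs, median 10125 UMIs in Fit2-Mut and 8107 in Fit2-WT) should lack both. They had Slc1a2 in 3.23% of cells in Fit2-Mut and 3.95% in Fit2-WT, and Kcnd2 in 1.68% and 0.922%. Without thinning, Kcnd2 was in 78.6% of low-ribosomal against 72.2% of other astrocytes in Fit2-Mut and 69.6% against 63.9% in Fit2-WT. Kcnd2 was thus more widely detected in low-ribosomal cells in both libraries, well above the microglial level.

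The remaining 4 genes of the astrocyte rule were lower in low-ribosomal cells. Slc1a3, the second astrocyte glutamate transporter, was at 1781 against 2320 CPM in Fit2-Mut (0.768) and 2010 against 2686 CPM in Fit2-WT (0.749). Aqp4, the water channel of astrocyte endfeet, was at 327 CPM in low-ribosomal against 950 CPM in other astrocytes of Fit2-Mut (0.344) and 314 against 1018 CPM in Fit2-WT (0.308). Gja1, which encodes the gap junction protein connexin 43, was at 401 against 1735 CPM in Fit2-Mut (0.231) and 414 against 1858 CPM in Fit2-WT (0.223). Ntsr2, a neurotensin receptor, was at 326 against 1014 CPM in Fit2-Mut (0.321) and 374 against 1003 CPM in Fit2-WT (0.373). The 6 genes together made up 1.07% of UMIs in the median low-ribosomal cell against 1.42% in other astrocytes of Fit2-Mut, and 1.13% against 1.49% in Fit2-WT. Slc1a2 and Slc4a4 thus had nearly the same level in both classes, while the other 4 genes of the rule were lower in low-ribosomal cells. All 6 genes chose the cells, and low-ribosomal cells lay nearer the limit of 10 UMIs. Their median was 40 UMIs of the 6 genes against 94 in Fit2-Mut and 38 against 90 in Fit2-WT. The balance between the 6 genes may be partly set by the rule and is only a description.

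**Figure D2:**
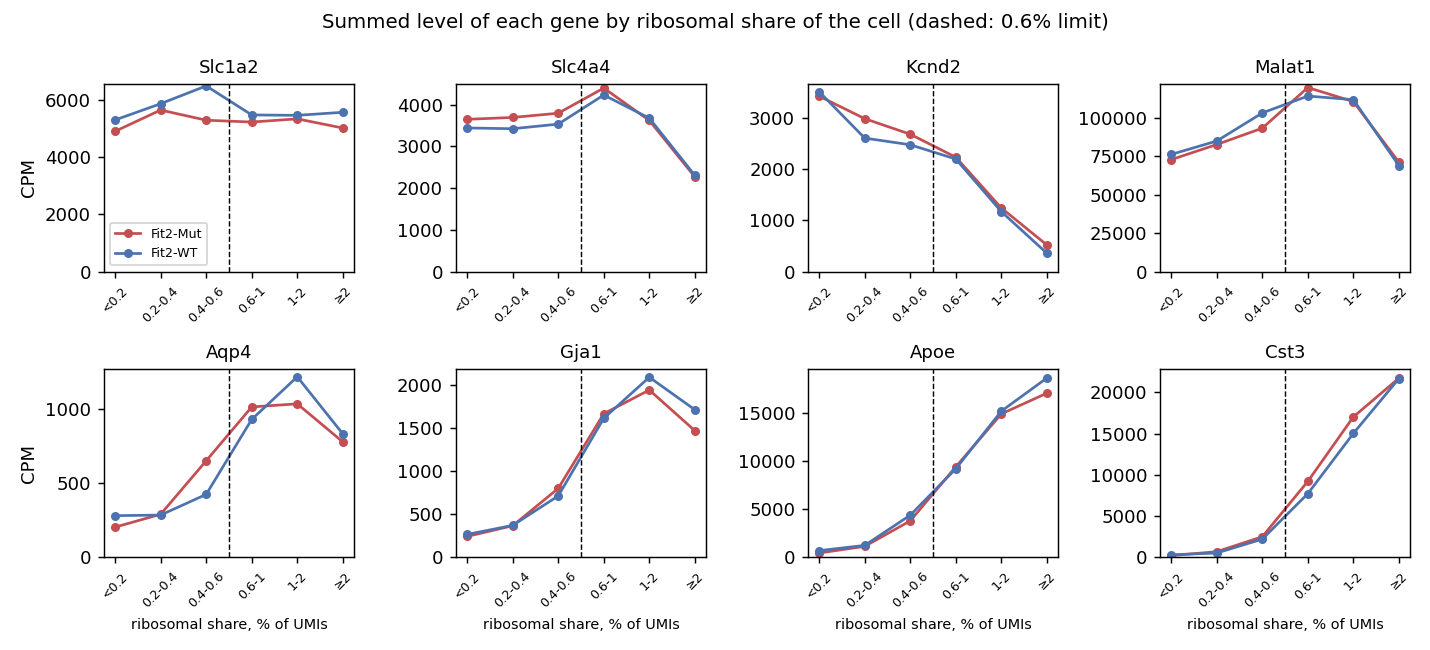
Summed level (vertical axes, CPM from 0) of 8 genes by the ribosomal share of the cell (horizontal axes, percent of UMIs, 6 bins from below 0.2% to 2% and above) in Fit2-Mut and Fit2-WT astrocytes, with the 0.6% limit dashed. Slc1a2 stays between 4895 and 6480 CPM, Kcnd2 is highest in the lowest bin, Apoe and Cst3 climb through all bins, and Malat1 and Slc4a4 are highest from 0.6% to 1%.

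The comparison across all genes asked which transcripts accompany the low ribosomal share. Since the cells were chosen by that share, these ratios are a description without a test. Of 10052 genes with at least 50 UMIs in each library, 793 were at least 2-fold higher in low-ribosomal cells in both libraries (7.89%) and 2404 were at least 2-fold lower in both (23.9%). Only 1 gene was 2-fold apart in opposite directions (0.00995%), the synaptic adhesion gene Lrrtm4, picked out after its values were seen. It had 20 UMIs in low-ribosomal against 95 in other astrocytes of Fit2-Mut (0.478) and 43 against 30 in Fit2-WT (2.37). In Fit2-Mut alone 1099 were 2-fold higher (10.9%) and 2760 lower (27.5%), and in Fit2-WT 1189 were higher (11.8%) and 2677 lower (26.6%). The median log2 ratio of all genes was -0.06 in Fit2-Mut and -0.04 in Fit2-WT. Across 10050 genes the 2 libraries, which share no cells, had a Pearson correlation of 0.947 between their log2 ratios. Genes are not independent replicates, and the same rule made the classes in both libraries.

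The genes farthest above a ratio of 1 in low-ribosomal cells were long. The 15 genes highest by the bound of their interval nearest to 1 spanned 93.1 to 1076 kb of genome, with a median of 514 kb. They were the transcription factor genes Rora, Gli2 and Zfp423, the RNA-binding protein genes Rbms3 and Msi2, the receptor genes Adgrb3, Ephb1, Erbb4 and Grid1, the potassium channel genes Kcnd2 and Kcnma1, the signalling genes Rgs7 and Prkce, Lrmda, and the noncoding RNA Kcnq1ot1. Their ratios lay between 2.58 and 3.25 in Fit2-Mut and between 2.58 and 3.17 in Fit2-WT.

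Rora, a nuclear receptor of 734 kb (chr9:68653786-69388246), was at 4219 CPM in low-ribosomal against 1531 CPM in other astrocytes of Fit2-Mut, and at 4185 against 1531 CPM in Fit2-WT. Adgrb3, an adhesion G protein-coupled receptor, was at 3983 CPM in low-ribosomal against 1478 CPM in other astrocytes of Fit2-Mut and 3775 against 1398 CPM in Fit2-WT. Erbb4, a neuregulin receptor, was at 2318 against 875 CPM in Fit2-Mut and 1971 against 763 CPM in Fit2-WT. Each was higher in low-ribosomal cells in both libraries, with ratios of 2.76 and 2.73 for Rora, 2.69 and 2.70 for Adgrb3, and 2.65 and 2.58 for Erbb4. Kcnq1ot1, a nuclear noncoding RNA that lies antisense within Kcnq1, was at 445 against 149 CPM in Fit2-Mut (2.99) and 363 against 126 CPM in Fit2-WT (2.88). Whether the counting used strand is not given in the sources used here, so reads of its partner cannot be set apart.

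The 15 lowest genes were short, from 1.2 to 12.8 kb with a median of 4.06 kb. Cst3, which encodes the secreted protease inhibitor cystatin C (chr2:148871722-148875692, minus strand), was at 837 CPM in low-ribosomal against 17109 CPM in other astrocytes of Fit2-Mut (0.0489, 0.0469 to 0.0510). In Fit2-WT it was at 808 against 16606 CPM (0.0487, 0.0465 to 0.0509). Mt1, a metallothionein, was at 276 CPM in low-ribosomal against 3342 CPM in other astrocytes of Fit2-Mut (0.0827) and 312 against 4074 CPM in Fit2-WT (0.0766). Bsg, the chaperone of monocarboxylate transporters, was at 50.1 against 704 CPM in Fit2-Mut (0.0713) and 47.5 against 666 CPM in Fit2-WT (0.0713). The others were the metallothionein gene Mt3, the mitochondrial protein genes Chchd2 and Chchd10, the respiratory chain genes Ndufa4 and Ndufb10, the glutathione transferase Gstm5, the fatty acid binding protein Fabp5, the proton pump subunit Atp6v0c, the signal peptidase subunit Spcs1, Gng5, Ddt and Cxcl12. Cxcl12 had 2 UMIs in the low-ribosomal cells of each library, below the floor of 3, so its ratio is not given as a fold. It passed the filter through other astrocytes alone, where 1.80% of Fit2-Mut and 1.89% of Fit2-WT cells held it. Without the 10% of barcodes with most transcripts of other cell types its log2 ratio was -1.71 in Fit2-Mut and -0.32 in Fit2-WT. The 5 cells with most Cst3 UMIs held 22.7% of all Cst3 UMIs of low-ribosomal cells in Fit2-Mut and 18.3% in Fit2-WT.

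The relation with gene length covered the whole range. A genome span from the GENCODE M21 annotation was found for 10048 of the 10052 genes. From under 5 kb through 5 to 20, 20 to 50, 50 to 100, 100 to 250 and 250 kb and above, the median log2 ratio was -2.37, -1.01, -0.02, 0.51, 0.84 and 1.09 in Fit2-Mut. In Fit2-WT it was -2.31, -0.94, 0.01, 0.49, 0.84 and 1.15. Of 917 genes under 5 kb, 744 were 2-fold lower in both libraries (81.1%) and 6 were 2-fold higher in both. Of 522 genes of 250 kb or more, 268 were 2-fold higher in both (51.3%) and 0 were 2-fold lower in both. Over the alternatives the first share ran from 53.3%, with 1 UMI in each group as the filter, to 90.1%, with 200 UMIs. The second ran from 41.6%, with a 0.4% ribosomal limit, to 63.7%, with other astrocytes at or above 1%. Genes of 250 kb or more supplied 29.0% of all UMIs in low-ribosomal cells against 13.3% in other astrocytes of Fit2-Mut, and 28.6% against 12.9% in Fit2-WT.

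**Figure D3:**
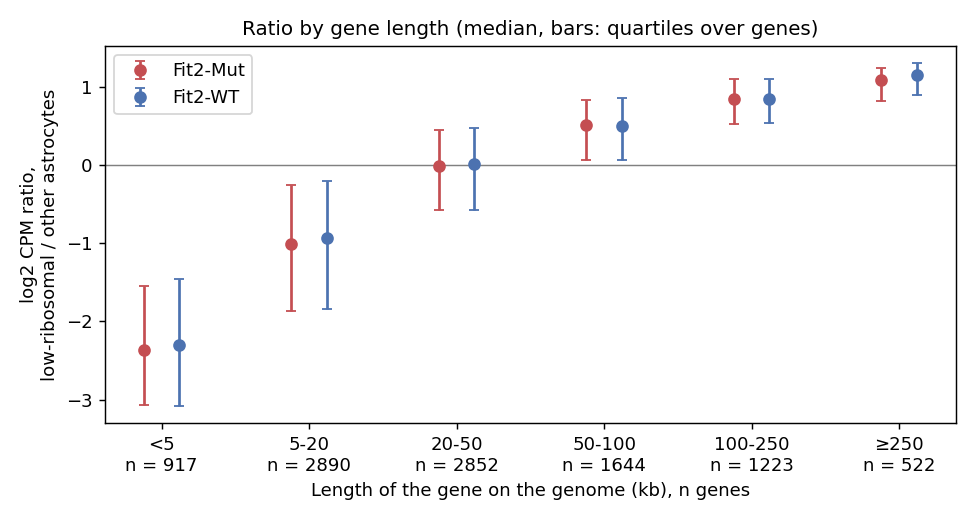
Median log2 CPM ratio of low-ribosomal over other astrocytes (vertical axis, bars are quartiles over genes) by length of the gene on the genome (horizontal axis, kb, with the number of genes) in Fit2-Mut and Fit2-WT. The median climbs from -2.37 and -2.31 under 5 kb to 1.09 and 1.15 at 250 kb and above, and the libraries lie close together in every bin.

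Across genes, Spearman's rho of the log2 ratio was 0.745 in Fit2-Mut and 0.733 in Fit2-WT with span, 0.601 and 0.599 with summed exon length, and 0.536 and 0.523 with the intronic percentage. With the mean level in other astrocytes it was -0.0933 and -0.134. These are descriptions over genes that share libraries and cells. The 193 genes whose annotated exons, merged over transcripts, form 1 block had median log2 ratios of -1.65 in Fit2-Mut and -1.55 in Fit2-WT. By biotype, 149 lincRNA genes had medians of 0.45 in Fit2-Mut and 0.48 in Fit2-WT, and 9599 protein-coding genes had medians of -0.07 in Fit2-Mut and -0.07 in Fit2-WT.

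Few genes went against their length, and they were picked out after their values had been seen. Among genes of 250 kb or more, 8 were below a ratio of 1 in both libraries. The one with most UMIs was Ntrk2, the receptor of brain-derived neurotrophic factor, at 916 against 1035 CPM in Fit2-Mut (0.885) and 862 against 1094 CPM in Fit2-WT (0.788). The rest were Btbd3, Pigk, Cadps2, Syn3, Nell2, Gm37240 and 9630028H03Rik. All 6 genes under 5 kb that were 2-fold higher in both libraries were gene models, namely Gm37107, Gm36988, Gm50012, Gm49130, Gm26621 and Gm26917. Of these, 3 are annotated inside introns of other genes and 1 as antisense. Reads of the 3 cannot be told apart from those of the gene around them. For the antisense model this depends on counting by strand, which is not given in the sources used here. The lincRNA model Gm26917 was at 872 CPM in low-ribosomal against 294 CPM in other astrocytes of Fit2-Mut (2.96) and 948 against 316 CPM in Fit2-WT (3.0).

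Nuclear noncoding RNAs other than Malat1 were mostly higher in low-ribosomal cells. Of 16 listed RNAs, 16 were measured with at least 20 UMIs in Fit2-Mut and 15 in Fit2-WT. At least 2-fold higher were 5 in Fit2-Mut, beside 2 lower, and 7 in Fit2-WT, beside 1 lower. Of all genes, 10.9% were at least 2-fold higher in Fit2-Mut and 11.8% in Fit2-WT, and 27.5% and 26.6% were at least 2-fold lower. The counts of this list and of the lists below stand beside these shares. They also stand beside the shares by gene length given above, and the part of length in them was not tested. The median log2 ratio was 0.74 in Fit2-Mut and 0.93 in Fit2-WT. Mir99ahg, host of a microRNA cluster, was at 2537 CPM in low-ribosomal against 1121 CPM in other astrocytes of Fit2-Mut (2.26) and 2389 against 1104 CPM in Fit2-WT (2.16). Neat1, the scaffold of paraspeckles, was at 162 against 110 CPM in Fit2-Mut (1.47) and 177 against 116 CPM in Fit2-WT (1.52). Firre, a chromatin-bound RNA of the X chromosome, was at 96.6 against 39.1 CPM in Fit2-Mut (2.47) and 111 against 46.8 CPM in Fit2-WT (2.38). Pantr1 was the clearest opposite case, at 111 against 359 CPM in Fit2-Mut (0.309) and 115 against 366 CPM in Fit2-WT (0.313). Meg3, the RNA of an imprinted locus that is abundant in neurons, was at 3.34 against 13.6 CPM in Fit2-Mut and 2.99 against 5.95 CPM in Fit2-WT. The summed level of the list, Malat1 included, was lower, at 86376 against 102270 CPM in Fit2-Mut (0.845) and 91577 against 97430 CPM in Fit2-WT (0.940), while its median was above 0.

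Genes of splicing and nuclear speckles differed little. Of 16 measured members, 11 in Fit2-Mut and 12 in Fit2-WT were above a ratio of 1, with 1 and 2 at least 2-fold higher, 1 and 0 at least 2-fold lower and medians of 0.22 in Fit2-Mut and 0.32 in Fit2-WT. Son, the speckle scaffold, was at 1410 CPM in low-ribosomal against 894 CPM in other astrocytes of Fit2-Mut (1.58) and 1550 against 944 CPM in Fit2-WT (1.64). Srsf7, a splicing factor, was the lower one, at 49.4 against 123 CPM in Fit2-Mut (0.401) and 59.5 against 112 CPM in Fit2-WT (0.532). Pnisr was at 948 against 479 CPM in Fit2-Mut (1.98) and 1008 against 482 CPM in Fit2-WT (2.09).

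Adhesion, synapse and channel genes of astrocytes were the list with the highest median. In Fit2-Mut 15 of 22 measured members were at least 2-fold higher and 2 lower, and in Fit2-WT 14 of 23 were higher and 2 lower. The medians were 1.13 in Fit2-Mut and 1.21 in Fit2-WT. Lsamp, a cell adhesion molecule of 2197 kb, was at 17998 CPM in low-ribosomal against 7368 CPM in other astrocytes of Fit2-Mut (2.44) and 18076 against 7322 CPM in Fit2-WT (2.47). The 2 lower members were Plpp3, a lipid phosphatase, at 0.475 in both libraries, and Ptn, which encodes the secreted growth factor pleiotrophin, at 0.288 and 0.221. At 75.4 and 95.3 kb they were far shorter than Lsamp.

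**Figure D4:**
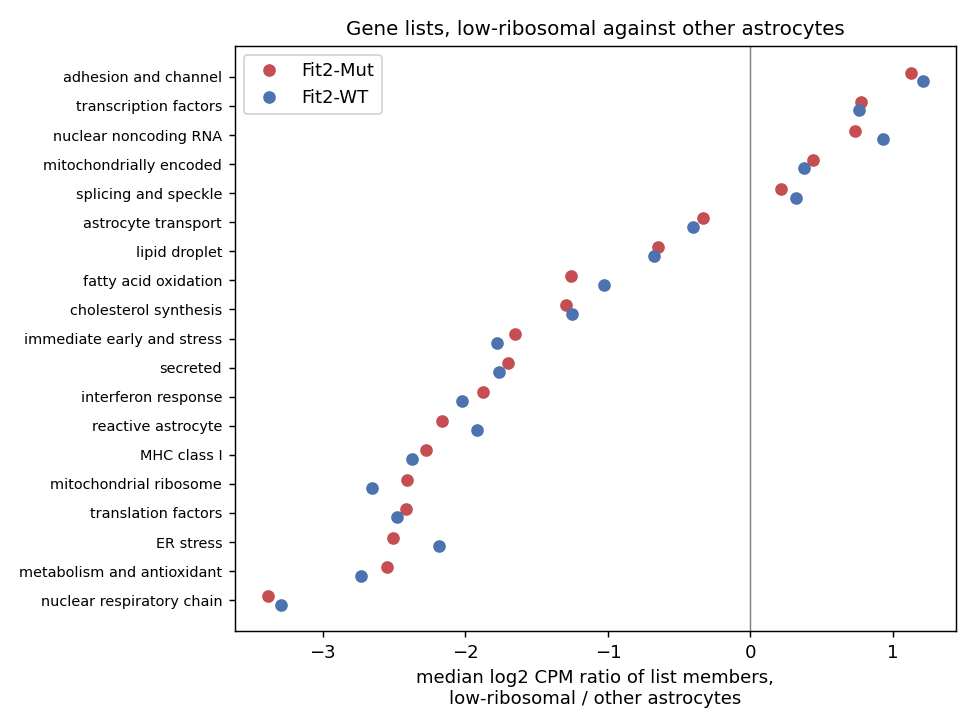
Median log2 CPM ratio of low-ribosomal over other astrocytes (horizontal axis) for 19 gene lists (rows), with the Fit2-Mut point above the Fit2-WT point in each row. Adhesion and channel genes lie at 1.13 and 1.21 and nuclear-encoded respiratory chain genes at -3.39 and -3.29, against medians of all genes of -0.06 and -0.04.

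Transcription factor genes stood on both sides of 1. Of 20 listed regulators, 8 in Fit2-Mut and 7 in Fit2-WT were at least 2-fold higher and 6 in each were at least 2-fold lower, with medians of 0.78 in Fit2-Mut and 0.76 in Fit2-WT. Npas3, a factor of 823 kb, was at 5803 CPM in low-ribosomal against 2319 CPM in other astrocytes of Fit2-Mut (2.5) and 5196 against 2071 CPM in Fit2-WT (2.51). Nfia, which drives astrocyte formation, was at 2001 against 896 CPM in Fit2-Mut (2.23) and 1898 against 874 CPM in Fit2-WT (2.17). Sox9, the astrocyte master regulator of 5.54 kb, was at 159 against 481 CPM in Fit2-Mut (0.332) and 164 against 505 CPM in Fit2-WT (0.324). Hes5, a Notch target of 1.45 kb, was at 85.1 against 285 CPM in Fit2-Mut (0.299) and 96.7 against 365 CPM in Fit2-WT (0.265). Sox9 and Nfia, both needed to form astrocytes, thus stood on opposite sides of a ratio of 1.

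Transport genes under 50 kb were mostly below a ratio of 1, and longer ones mostly above it. Of 12 genes under 50 kb, 5 were 2-fold lower in both libraries and 0 were above 1 in both, with medians of -0.66 in Fit2-Mut and -0.57 in Fit2-WT. Of 8 genes of 50 kb or more, 1 was 2-fold lower in both, the potassium channel gene Kcnj16, and 6 were above 1 in both, with medians of 0.10 in Fit2-Mut and 0.10 in Fit2-WT. Over all 20 genes the medians were -0.34 in Fit2-Mut and -0.40 in Fit2-WT, with 6 members at least 2-fold lower in each library, beside 27.5% of all genes in Fit2-Mut and 26.6% in Fit2-WT, and 0 and 1 higher. All 6 genes of the astrocyte rule are in this list. Ntsr2, Aqp4 and Gja1 are 3 of the 5 lower short genes, and Slc1a2 and Slc4a4 are 2 of the 6 longer genes above 1, so the contrast by length rests partly on values that the rule used. The Fit2-WT member over 2-fold was Atp13a4, at 425 against 214 CPM (1.99) in Fit2-Mut and 409 against 191 CPM (2.14) in Fit2-WT. Atp1b2, a sodium pump subunit of 6.21 kb, was at 324 CPM in low-ribosomal against 1256 CPM in other astrocytes of Fit2-Mut (0.258) and 337 against 1190 CPM in Fit2-WT (0.284). Gjb6, the other astrocyte connexin, was at 155 against 502 CPM in Fit2-Mut (0.308) and 150 against 498 CPM in Fit2-WT (0.301).

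Secreted proteins of astrocytes were lower. Of 20 members, 13 in Fit2-Mut and 12 in Fit2-WT were at least 2-fold lower and 0 higher, with medians of -1.70 in Fit2-Mut and -1.76 in Fit2-WT. Apoe, the main apolipoprotein of astrocytes, was at 1372 CPM in low-ribosomal against 14561 CPM in other astrocytes of Fit2-Mut (0.0942, 0.0912 to 0.0974) and 1749 against 15638 CPM in Fit2-WT (0.112, 0.108 to 0.115). Clu, the chaperone clusterin, was at 281 against 2647 CPM in Fit2-Mut (0.106) and 343 against 2951 CPM in Fit2-WT (0.116). Cpe, the prohormone-processing carboxypeptidase of 101 kb, was nearly even, at 1594 against 1570 CPM in Fit2-Mut (1.02) and 1325 against 1596 CPM in Fit2-WT (0.830). Apoe spans 3.08 kb and Clu 13.1 kb. Of all genes under 5 kb, 81.1% were 2-fold lower in both libraries, and of those of 5 to 20 kb 43.1%. The part of gene length in the secreted list was not tested. The summed Apoe level of the class varied within it, and was highest in the cells nearest the 0.6% limit. After thinning to 1000 UMIs, Apoe was detected in 42.9% against 97.0% of Fit2-Mut cells and 46.2% against 95.7% of Fit2-WT cells. Cells marked by microglial genes, a type that also makes Apoe, had it in 75.3% in Fit2-Mut and 76.4% in Fit2-WT. Without thinning, the Apoe shares were 75% of low-ribosomal against 99% of other astrocytes in Fit2-Mut and 73.1% against 98.6% in Fit2-WT.

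Free RNA in the droplets was measured beside these levels. Ttr, the choroid plexus transport protein that astrocytes do not make, was at 871 CPM in low-ribosomal cells of Fit2-Mut and 926 CPM in those of Fit2-WT. These levels are 1.89% and 1.95% of the levels in barcodes with 10 to 100 UMIs, which hold free RNA. The same fraction of free RNA would give 116 and 109 CPM of Apoe and 97.3 and 79.3 CPM of Cst3. Measured Apoe and Cst3 were above these amounts in both libraries. Free RNA itself was 4.18% and 3.94% ribosomal and 2.0% and 2.11% mitochondrial, so it was richer in ribosomal and poorer in mitochondrial transcripts than the low-ribosomal cells.

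Metabolic and antioxidant genes were lower still. Of 20 members, 16 and 17 were at least 2-fold lower and all 20 were below 1 in each library, with medians of -2.55 in Fit2-Mut and -2.73 in Fit2-WT. Ckb, creatine kinase of the brain, was at 497 CPM in low-ribosomal against 3928 CPM in other astrocytes of Fit2-Mut (0.127) and 575 against 4463 CPM in Fit2-WT (0.129). Aldoc, the astrocyte aldolase, was at 284 against 2611 CPM in Fit2-Mut (0.109) and 303 against 2857 CPM in Fit2-WT (0.106). Glul, which encodes glutamine synthetase, was at 630 against 1754 CPM in Fit2-Mut (0.359) and 572 against 1950 CPM in Fit2-WT (0.294). Ckb spans 2.98 kb, Aldoc 4.81 kb and Glul 9.78 kb. Of all genes under 5 kb, 81.1% were 2-fold lower in both libraries, and of those of 5 to 20 kb 43.1%. The part of gene length in the metabolic list was not tested.

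The respiratory chain divided by genome. All 27 listed nuclear genes of complexes I, III, IV and V were at least 2-fold lower in both libraries, with medians of -3.39 in Fit2-Mut and -3.29 in Fit2-WT. Cox8a was at 75 CPM in low-ribosomal against 818 CPM in other astrocytes of Fit2-Mut (0.0917) and 92.8 against 911 CPM in Fit2-WT (0.102), and Cox4i1 at 82.8 against 746 CPM in Fit2-Mut (0.111) and 71.0 against 766 CPM in Fit2-WT (0.0927). All 13 mitochondrially encoded genes were above 1 in both libraries, with medians of 0.44 in Fit2-Mut and 0.38 in Fit2-WT and a summed ratio of 1.36 and 1.29. For mt-Co3, a subunit of the same complex IV, the levels were 10443 against 7395 CPM in Fit2-Mut (1.41) and 9657 against 7339 CPM in Fit2-WT (1.32). The 20 genes of the mitochondrial ribosome, also nuclear-encoded, were at least 2-fold lower in both libraries, with medians of -2.41 in Fit2-Mut and -2.65 in Fit2-WT. Subunits of one complex thus stood apart by the genome that encodes them. The listed nuclear respiratory chain genes span 1.2 kb (Atp5k) to 12.4 kb (Cox6c), and the mitochondrially encoded genes 0.20 to 1.82 kb. Of all genes under 5 kb, 81.1% were 2-fold lower in both libraries, and of those of 5 to 20 kb 43.1%. The part of gene length in this contrast was not tested.

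Translation factors and other genes of the 5′ terminal oligopyrimidine (TOP) class, whose messages are translated under the same control as those of ribosomal proteins, were not used by the rule. At least 2-fold lower were 18 of 20 in each library, with medians of -2.42 in Fit2-Mut and -2.48 in Fit2-WT. Eef1a1, the elongation factor, was at 84.3 CPM in low-ribosomal against 505 CPM in other astrocytes of Fit2-Mut (0.167) and 98.8 against 519 CPM in Fit2-WT (0.191). Fau, which encodes a ribosomal protein under another name, was at 50.1 against 496 CPM in Fit2-Mut (0.101) and 56.0 against 515 CPM in Fit2-WT (0.109). Rack1, a scaffold on the small ribosomal subunit, was at 21.5 against 125 CPM in Fit2-Mut (0.173) and 18.0 against 123 CPM in Fit2-WT (0.146). Eif3f, an initiation factor subunit, was at 11.9 against 77.3 CPM in Fit2-Mut (0.154) and 12 against 85.9 CPM in Fit2-WT (0.139).

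Their start sites are shown because the oligopyrimidine tract is the feature that defines the class. Each line gives 30 bases around the annotated RefSeq start on GRCm38.p6, on the strand of the gene, with the tract from the start onwards in capitals. Fau lies on chromosome 19, Rack1 on chromosome 11 and Eif3f on chromosome 7.
Fau: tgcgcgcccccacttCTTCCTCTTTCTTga
Rack1: cggaggccgctctttCTTTTTCTCCacagg
Eif3f: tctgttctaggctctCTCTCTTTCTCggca
A tract was counted when the first transcribed base was C and at least 5 bases from there on were C or T without a break, on the gene's strand only. It was found in 5 of the 13 listed genes with a RefSeq start (38.5%), the others being Gas5 and Nap1l1. It was found in 15 of 79 Rps and Rpl genes (19%) and in 813 of 27025 genes in all (3.01%). A start annotated a few bases away hides a tract, so a missing match says nothing of the gene.

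Stress, reactive and immune genes were lower as well, beside 27.5% of all genes in Fit2-Mut and 26.6% in Fit2-WT. Fos spans 3.38 kb, B2m 5.40 kb and Gfap 13.6 kb. Of genes under 5 kb, 81.1% were 2-fold lower in both libraries, and of those of 5 to 20 kb 43.1%. The part of gene length in these lists was not tested. Immediate early and heat shock genes had medians of -1.65 in Fit2-Mut and -1.78 in Fit2-WT, with 15 and 14 of 19 measured members at least 2-fold lower. Fos was at 7.43 CPM in low-ribosomal against 52.5 CPM in other astrocytes of Fit2-Mut and 12 against 57.2 CPM in Fit2-WT, and Hspa8, a heat shock chaperone, at 90.6 against 636 CPM in Fit2-Mut (0.143) and 104 against 699 CPM in Fit2-WT (0.148). Reactive astrocyte genes had medians of -2.17 in Fit2-Mut and -1.92 in Fit2-WT, with 9 and 11 of 16 lower, and Lcn2, Steap4 and Timp1 were at 0 in low-ribosomal cells of both libraries. Gfap, the intermediate filament of reactive astrocytes, was at 5.20 against 62.3 CPM in Fit2-Mut and 8.55 against 34.1 CPM in Fit2-WT. Interferon response genes had medians of -1.88 in Fit2-Mut and -2.02 in Fit2-WT, with 16 of 22 and 15 of 21 lower. MHC class I genes had medians of -2.28 in Fit2-Mut and -2.37 in Fit2-WT, with 10 and 9 of 12 lower, and B2m, their shared light chain, was at 18.9 against 128 CPM in Fit2-Mut and 15.8 against 97.8 CPM in Fit2-WT. Endoplasmic reticulum stress genes had medians of -2.51 in Fit2-Mut and -2.18 in Fit2-WT, with 15 and 14 of 18 lower, and the chaperone gene Hspa5 was at 69.8 against 441 CPM in Fit2-Mut and 83.0 against 442 CPM in Fit2-WT.

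Lipid genes were lower by less. The lipid droplet list had medians of -0.65 in Fit2-Mut and -0.67 in Fit2-WT, with 7 of 18 measured members at least 2-fold lower in each library. That count is not far above the share of all genes, 27.5% in Fit2-Mut and 26.6% in Fit2-WT. Acsl3, an acyl-CoA synthetase, was at 877 CPM in low-ribosomal against 1939 CPM in other astrocytes of Fit2-Mut (0.452) and 852 against 1902 CPM in Fit2-WT (0.448), while Mgll, which encodes monoglyceride lipase, was at 356 against 339 CPM in Fit2-Mut (1.05) and 347 against 438 CPM in Fit2-WT (0.792). Cholesterol synthesis genes had medians of -1.30 in Fit2-Mut and -1.26 in Fit2-WT, with 13 of 21 lower in each library. Msmo1, a sterol oxidase, was at 149 against 550 CPM in Fit2-Mut and 131 against 473 CPM in Fit2-WT. Fatty acid oxidation genes had medians of -1.26 in Fit2-Mut and -1.03 in Fit2-WT, with 12 and 11 of 21 lower. The lipid genes were thus nearer to 1 than the metabolic genes, and the long-chain oxidation enzyme Acadl was at 49.8 against 199 CPM in Fit2-Mut and 70.1 against 238 CPM in Fit2-WT. Msmo1 spans 15.7 kb, Acadl 32.4 kb, Acsl3 49.9 kb and Mgll 104 kb, longer than the metabolic genes Ckb, Aldoc and Glul. The part of gene length in the order of these lists was not tested.

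Regional markers did not single out one region. Telencephalic astrocyte genes had medians of -0.46 in Fit2-Mut and -0.89 in Fit2-WT and non-telencephalic genes of -0.58 and -0.49. Mfge8, high in the telencephalon, was at 201 CPM in low-ribosomal against 807 CPM in other astrocytes of Fit2-Mut (0.25) and 192 against 976 CPM in Fit2-WT (0.196), and Agt, high outside it, was at 142 against 638 CPM in Fit2-Mut (0.222) and 160 against 672 CPM in Fit2-WT (0.238). Both were lower in low-ribosomal cells. Mfge8 spans 15.3 kb and Agt 13.2 kb, and 43.1% of genes of 5 to 20 kb were 2-fold lower in both libraries. Their levels therefore do not speak to the region of the cells, which was not tested. Bergmann glia genes, of the cerebellum, had medians of -0.73 in Fit2-Mut and -0.53 in Fit2-WT. Their summed level went the other way, at 4114 against 2417 CPM in Fit2-Mut and 3905 against 2279 CPM in Fit2-WT, since the long genes Gria1 and Fgf14 were over 2-fold higher in both libraries.

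Transcripts of other cell types made up little of the low-ribosomal cells. Microglial genes summed to 115 CPM in low-ribosomal against 657 CPM in other astrocytes of Fit2-Mut and 88.5 against 318 CPM in Fit2-WT, with 8 of 9 and 7 of 8 measured genes at least 2-fold lower. The medians were -2.77 in Fit2-Mut and -1.95 in Fit2-WT, but without the 10% of barcodes richest in transcripts of other cell types the Fit2-Mut median was 0.29. Endothelial genes summed to 25.6 CPM in low-ribosomal against 260 CPM in other astrocytes of Fit2-Mut and 29.9 against 258 CPM in Fit2-WT, with 10 of 10 lower in each and Itm2a at 0 in Fit2-Mut. Choroid plexus genes summed to 959 against 5795 CPM in Fit2-Mut and 1034 against 3370 CPM in Fit2-WT, nearly all of it Ttr, with medians of -2.70 in Fit2-Mut and -1.37 in Fit2-WT. Without the same barcodes the Fit2-WT choroid median was 0.42. The median cell went the other way from the choroid sums. Its choroid plexus share was 0.0971% of UMIs in low-ribosomal against 0.0640% in other astrocytes of Fit2-Mut. In Fit2-WT it was 0.0989% against 0.0681%. In thinned cells, Ttr was found in 61.5% of low-ribosomal against 46.1% of other astrocytes in Fit2-Mut. In Fit2-WT it was found in 59.2% against 51.2%. The lower sums thus do not show less choroid plexus RNA in the typical low-ribosomal cell. Ependymal genes summed to 19.3 against 101 CPM in Fit2-Mut and 21 against 112 CPM in Fit2-WT. Pericyte and smooth muscle genes summed to 79.9 against 129 CPM in Fit2-Mut and 79.1 against 105 CPM in Fit2-WT, mostly Pdgfrb, and 6 and 5 of the 10 genes were at 0.

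Some lists of other cells were not lower. Neuronal genes summed to 247 against 181 CPM in Fit2-Mut and 263 against 110 CPM in Fit2-WT. That excess came from Rbfox1, a splicing regulator of 1526 kb, at 217 CPM in low-ribosomal against 92.1 CPM in other astrocytes of Fit2-Mut and 236 against 70.4 CPM in Fit2-WT. Snap25, of the synaptic vesicle machinery, was at 10.4 against 9.81 CPM in Fit2-Mut and 8.13 against 7.5 CPM in Fit2-WT, and the transporter genes Slc17a7 and Slc32a1 were at 0 in both libraries. Medians of the neuronal list were -2.06 over 8 measured genes in Fit2-Mut and -0.69 over 5 in Fit2-WT, below 0 while the sums were higher. Oligodendrocyte precursor genes had medians of 0.80 in Fit2-Mut and 0.26 in Fit2-WT over 5 genes each. Their defining receptor Pdgfra was at 0 in Fit2-Mut. Oligodendrocyte genes outside the rule had medians of 0.23 in Fit2-Mut and -0.63 in Fit2-WT. The Fit2-Mut median was -0.07 with a 0.4% ribosomal limit, and the Fit2-WT median 0.73 with free RNA subtracted, so neither sign held throughout. Their summed level was 269 against 371 CPM in Fit2-Mut and 234.8 against 371 CPM in Fit2-WT, with no gene at 0. Neuroblast genes had a median of -2.62 over 7 genes in Fit2-Mut and -1.37 over 4 in Fit2-WT, with the proliferation gene Top2a at 0 in both. The part of other cell types in the differences between classes was not tested beyond leaving out the barcodes with most of their transcripts.

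A share below the 0.6% limit was rare in cells marked by microglial, oligodendrocyte or choroid plexus genes, whose usual ribosomal share was higher. In cells marked by microglial genes its median was 16.5% in Fit2-Mut and 17.1% in Fit2-WT. With oligodendrocyte genes it was 4.37% and 4.64%, and with choroid plexus genes 8.11% and 8.16%. In other astrocytes it was 1.49% and 1.66%, so the limit lay much farther below the usual level of these marked types. Below 0.6% were 0.359% of 835 cells marked by microglial genes in Fit2-Mut and 0.659% of 759 in Fit2-WT. The shares were 0.221% of 904 and 0.139% of 717 cells marked by oligodendrocyte genes. Of 1414 and 1368 cells marked by choroid plexus genes none was below it, which allows shares of up to 0.261% and 0.269%. Among all cells that were not astrocytes by the rule, 105 of 4508 (2.33%) and 116 of 4145 (2.80%) were below the limit. Most of these low cells lay outside the marked types, and their types were not examined. A low share is therefore not shown to be particular to astrocytes. Barcodes that met the astrocyte rule but had more than 10% mitochondrial UMIs, which were left out, were mostly low-ribosomal, with 175 of 231 (75.8%, 69.7 to 81.1) in Fit2-Mut and 144 of 189 (76.2%, 69.5 to 82.1) in Fit2-WT.

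Within the low-ribosomal class, summed Apoe and Cst3 were higher in cells nearer the limit. Spearman's rho between the ribosomal and the Apoe share was 0.320 over 636 Fit2-Mut cells and 0.288 over 606 Fit2-WT cells. Between the ribosomal and the mitochondrial share it was 0.018 and -0.012, between the ribosomal share and UMIs -0.093 and -0.117, and between the ribosomal and the Kcnd2 share -0.102 and -0.128. Cells of 1 library share its preparation, and in sparse counts such values are no finding. Summed Apoe in the 3 bins below the limit, from the lowest share up, was 435, 1126 and 3773 CPM in Fit2-Mut and 682, 1226 and 4362 CPM in Fit2-WT. Summed Cst3 in the same bins was 187, 672 and 2485 CPM in Fit2-Mut and 289, 508 and 2193 CPM in Fit2-WT, so the gradient seen across the limit ran on inside it. Over the same bins Slc1a2 was 4895, 5638 and 5282 CPM in Fit2-Mut and 5291, 5859 and 6480 CPM in Fit2-WT.

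The study's own comparison is that of the genotypes. Fitm2, the targeted gene, had 17 UMIs in Fit2-Mut and 20 UMIs in Fit2-WT low-ribosomal cells, or 6.32 and 8.55 CPM (0.738, 0.363 to 1.48). In other astrocytes it was at 12.9 and 13.7 CPM (0.942). A difference was not detectable at this depth, and Fit2 was disrupted in macrophages, so the value does not check the genotype. App was at 73.2 CPM in Fit2-Mut and 60.3 CPM in Fit2-WT low-ribosomal cells (1.21, 0.973 to 1.52).

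Low-ribosomal cells were 43.2% of Fit2-Mut astrocytes (40.7 to 45.8, 636 of 1471) and 51.0% of Fit2-WT astrocytes (48.1 to 53.9, 606 of 1188), a ratio of 0.848. Of all cells they were 10.6% in Fit2-Mut (9.87 to 11.4) and 11.4% in Fit2-WT (10.5 to 12.2). The intervals of the first pair do not overlap, those of the second pair do, and neither covers the spread between preparations. With a limit of 5% mitochondrial UMIs the shares of astrocytes were 32.6% and 42.2%.

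Between genotypes, gene levels in low-ribosomal cells were compared without a test. Of 8595 genes with at least 50 UMIs, 230 were at least 1.5-fold higher in Fit2-Mut (2.68%) and 283 at least 1.5-fold lower (3.29%). In other astrocytes the counts were 309 (2.73%) and 173 (1.53%) of 11308. Of 8540 genes measured in both classes, 16 were higher (0.187%) and 9 lower (0.105%) in both. The median log2 ratio was -0.01, and 90% of genes lay between -0.51 and 0.47. Among 3809 genes with at least 200 UMIs, 25 were higher and 19 lower.

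By the interval bound nearest to 1, the 10 highest genes were Slc43a2, Aco1, Vcl, Cops7b, Dclre1c, Zfp710, Stk32a, Etnppl, Zfp568 and Pcx. Slc43a2, an amino acid transporter, had 161 UMIs in Fit2-Mut and 71 in Fit2-WT low-ribosomal cells (1.97, 1.48 to 2.64), against a ratio of 1.51 in other astrocytes. Vcl, which encodes the cytoskeletal linker vinculin, had 940 and 532 UMIs, or 349 and 228 CPM (1.53, 1.38 to 1.71), against 1.23 in other astrocytes. Aco1, cytosolic aconitase and iron regulator, had 161 and 74 UMIs (1.89, 1.43 to 2.52), against 1.10. Etnppl, an astrocyte enzyme of phosphoethanolamine breakdown, had 374 and 205 UMIs (1.58), against 1.30. Pcx, pyruvate carboxylase, had 592 and 342 UMIs (1.5), against 1.03.

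The 10 lowest were Ftx, Igsf1, Padi2, Sec61a1, Porcn, Rpe65, Pygl, Zfp3, Snf8 and Rxylt1. Ftx, a noncoding RNA beside Xist, had 55 UMIs in Fit2-Mut and 95 in Fit2-WT low-ribosomal cells (0.503, 0.354 to 0.708), against 1.03 in other astrocytes. Rpe65, a retinoid isomerase, had 79 and 121 UMIs (0.567, 0.422 to 0.759), against 0.575, and was the one gene of the 10 past 1.5-fold lower in both classes. Padi2, a peptidylarginine deiminase, had 96 and 145 UMIs (0.575), against 0.882, and Sec61a1, of the protein translocation channel, had 66 and 105 UMIs (0.546), against 0.964. All 10 had under 100 UMIs in Fit2-Mut low-ribosomal cells, and the 5 cells with most UMIs of a gene held 15.2% to 52.6% of its Fit2-Mut UMIs.

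**Figure D5:**
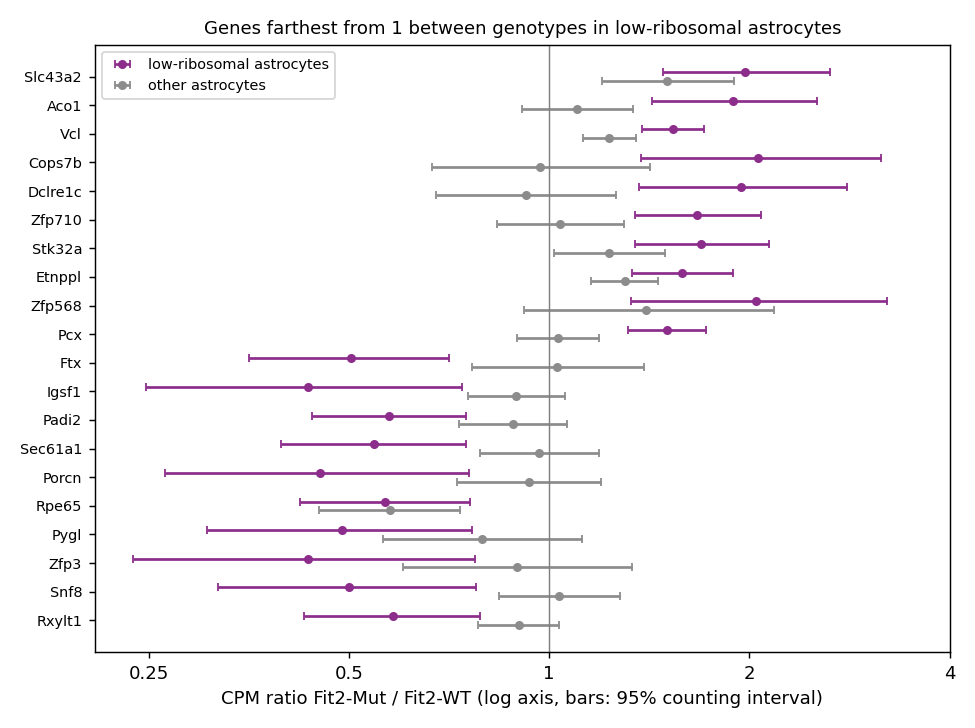
CPM ratio of Fit2-Mut over Fit2-WT (horizontal axis, log scale, bars are 95% counting intervals) for the 20 genes farthest from 1 in low-ribosomal astrocytes (rows), with the low-ribosomal point above the point of other astrocytes. Slc43a2 and Rpe65 lie on the same side by 1.5-fold or more in both classes, while Ftx, Cops7b and Dclre1c lie near 1 in other astrocytes.

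Between genotypes in low-ribosomal cells, the lipid droplet list had a median log2 ratio of -0.02 over 17 measured genes, with 0 at least 1.5-fold higher and 1 lower, against -0.10 in other astrocytes. Cholesterol synthesis had 0.19 with 15 of 21 genes above 1, against 0.12 with 16 of 21. Thinned to 1000 UMIs, the cholesterol median turned to -0.06. Mitochondrially encoded genes had 0.11 with 11 of 13 above 1, against 0.01. Reactive astrocyte genes had -0.28 over 14 genes against -0.01, and endoplasmic reticulum stress genes -0.22 over 17 against 0.01. Fatty acid oxidation had -0.06, interferon response 0.03 over 8 genes, MHC class I -0.13 over 6 and nuclear respiratory chain genes -0.07. The lipid droplet, endoplasmic reticulum stress, MHC class I, interferon and nuclear respiratory chain medians also changed sign under at least 1 alternative, while the mitochondrially encoded median stayed between 0.06 and 0.12. Microglial genes had 0.49 over 8 genes with 3 at least 1.5-fold higher, at summed levels of 115 and 88.5 CPM. In other astrocytes microglial genes had 1.15 over 9 genes with 7 at least 1.5-fold higher, at 657 and 318 CPM, and choroid plexus genes 0.67 over 10. Their part in the genotype ratios was not tested.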

How the data were processed

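UMI counts per gene and barcode were deposited for 2 droplet libraries, 1 per genotype, as whole numbers for 32285 genes and every barcode with a UMI, with no cell calling. The count matrices were made by Cell Ranger 7.1.0 per the file headers and 7.0.0 per the submitters' processing notes, on mm10. Which annotation was used, and whether reads in introns were counted, is not given in the sources used here. Counting of introns bears on every comparison by gene length. The libraries held 63234140 UMIs (Fit2-Mut) and 52491901 UMIs (Fit2-WT).

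Barcodes with at least 1000 UMIs, at least 500 genes and at most 10% mitochondrial UMIs were kept, which left 5979 Fit2-Mut and 5333 Fit2-WT cells, of whose barcodes 10 occur in both libraries. Astrocytes and their low-ribosomal class were taken by the limits in the report. The class, its members and the 31 gene lists were chosen with earlier results of these data known. No doublets were removed, and Scrublet (scanpy 1.11.5) served as an alternative only.

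UMIs were summed per library and class and divided by their total (CPM). Ratios have exact conditional 95% intervals and shares exact Clopper-Pearson 95% intervals. Both cover counting error only, and so does the floor of 3 counts. The intervals were run on simulated Poisson counts, the model they assume. That simulation leaves out the clustering of UMIs in cells, so it does not check the intervals against it. Genes needed 50 UMIs (in each library for the class ratio, in both together for the genotype ratio) and list members 20. A ratio of 2 between classes, in both libraries unless said otherwise, or of 1.5 between genotypes, was counted. Named genes were those of the rule, Malat1, Kcnd2 and Fitm2, and the 15 highest and 15 lowest between classes. The 10 highest and 10 lowest between genotypes were also named, and both rankings used the interval bound nearest to 1. From the gene lists, members with most UMIs were named. Others with fewer UMIs, such as Meg3, were named too, and some, such as Srsf7 and Pantr1, for their direction. Between genotypes a UMI in at least 5% of cells and at least 0.5 times the free RNA level were required, and ribosomal, mitochondrial, haemoglobin, Xist, Y-linked and unnamed genes were left out. Free RNA was taken from barcodes with 10 to 100 UMIs. Gene spans came from GENCODE M21 and start sites from RefSeq (GRCm38.p6). Python 3.11.15, numpy 2.4.6, scipy 1.17.1, pandas 2.3.3 and matplotlib 3.10.9 were used. There were 15 alternatives, on the limits, the scaling, the gene filter, thinning, doublets, other cell types and free RNA. One of them, which kept other astrocytes from 0.6% to 4% only, was added after the data were seen.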

Additional observations from a re-analysis of the deposited data

Results flagged for a closer look

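Malat1 stood on opposite sides of 1 between genotypes in the 2 astrocyte classes, with counting intervals that did not reach 1. It was 0.939 times as high in Fit2-Mut as in Fit2-WT low-ribosomal astrocytes (0.934 to 0.945) and 1.05 times as high in other astrocytes (1.05 to 1.06). The difference was not tested, since each genotype is 1 library.

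Aco1, cytosolic aconitase, stood on opposite sides of 1 between classes in the 2 libraries. Low-ribosomal over other astrocytes gave 1.23 in Fit2-Mut and 0.716 in Fit2-WT. This difference was not tested either.

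Astrocyte barcodes with more than 10% mitochondrial UMIs, which no comparison used, were below the ribosomal limit in 75.8% of cases in Fit2-Mut and 76.2% in Fit2-WT. Within the mitochondrial limit the shares were 43.2% and 51.0%.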

How the results depend on the processing

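No paired analysis was possible because no result comes from a test. Of 78 main values and counts under 15 alternatives, 61 stayed within their counting interval or within 1.5 times the count. The share of low-ribosomal cells among astrocytes was 35.49% in Fit2-Mut and 39.65% in Fit2-WT with a 0.4% ribosomal limit, 48.88% and 55.98% with 0.8%, and 32.64% and 42.17% with at most 5% mitochondrial UMIs, where the genotype ratio was 0.7739. With at least 2000 UMIs and 1000 genes the Fit2-WT share was 47.34%. Thinning to 1000 UMIs left 4190 genes between classes, 514 higher and 973 lower, and 3814 between genotypes, 128 higher and 133 lower. With 1 UMI per group, 15466 genes gave 1665 higher and 2087 lower in Fit2-Mut. With 200 UMIs, 5257 genes gave 1400 lower between classes, and 3809 gave 25 higher and 19 lower between genotypes. The changed number of genes tested is part of each of these counts.

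For list medians at least 2-fold apart between low-ribosomal and other astrocytes, 4 recomputed values turned in sign, some of them for the same median. Without the 10% of barcodes with most transcripts of other cell types, the microglial log2 median was 0.2857 in Fit2-Mut and the choroid plexus median 0.4209 in Fit2-WT. With other astrocytes from 0.6% to 4% only, an alternative added after the data were seen, the Fit2-Mut microglial median was 0.007485. With free RNA subtracted the Fit2-Mut ependymal median was 0.6928. The cause was not tested. Of the named genes, 1302 values stayed within their intervals, and 317 moved. Of those past the counted ratio, 0 turned in sign.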
